A study of Solanum chacoense with 24 samples.

Results

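Gene models that were read in leaves of the potato relative Solanum chacoense line 80-1 and not in line M6 are described here. They are the models with at least 1 CPM (a model's share of all counts in a library, per 1000000, not scaled further) in each of the 3 libraries of 80-1 and with 0 counts in all 3 libraries of M6. This held for 71 of 37740 gene models, or 0.438% of the 16214 models that had at least 1 CPM in each 80-1 library. All 71 lie on the 12 chromosomes, as does every model with a count in any library. Members were thus selected on their counts in 80-1 and M6, so the levels in the parents are described and not tested.

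Solanum chacoense is a wild relative of the cultivated potato, and the accession 80-1 (USDA8380-1) is known for glycoalkaloids of the leptine type that deter the Colorado potato beetle. Potato genomes are known for genes that are present in some lines and absent from others. A model with no counts may belong to a gene that is missing, that is not transcribed in the leaf, or whose reads were not assigned to the model, and these cannot be told apart in counts. In an F2, genes that lie close together on a parental chromosome tend to be inherited together.

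The beetle-resistant 80-1 was crossed to the inbred, susceptible M6, and 6 individuals of the F2 were taken from the extremes of a field trial. The F2 lines EE501F2_089, EE501F2_516 and EE501F2_641 are resistant, and EE501F2_093, EE501F2_099 and EE501F2_500 are susceptible. Each of the 8 lines is 1 genotype by its label, kept as in vitro plants and grown in a chamber at 20 °C with 16 h of light and 70% humidity. From 3 plants of each line, RNA was taken from leaves 16 weeks after transplanting, and the 24 libraries are thus plants of an individual and not separate individuals. With leaf RNA in bulk, fewer cells of a type and less RNA per cell cannot be told apart.

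Library totals ran from 23610756 to 40825791 counts in 7 lines and from 60713423 to 77078776 in EE501F2_093. Where all 3 libraries of a line had 0 counts, up to 3 counts are allowed for, which is 0.0301 CPM in M6, 0.0395 CPM in EE501F2_641 and 0.0145 CPM in EE501F2_093. Plants of EE501F2_641 differed from each other in which members they had reads for, so counts that rest on this line are also given without it. The files pair no identifier with a gene name, so neither the functions of the members nor leaf marker genes could be looked up.

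In 80-1 the members had low to moderate levels. Mean CPM ran from 1.17 to 18.5 with a median of 2.60, and 46 of the 71 members had at least 2 CPM, 15 at least 5 CPM and 5 at least 10 CPM. The member with the most counts was g26016 (chromosome 8, 23398544 to 23400347), at 11.6, 17.0 and 26.8 CPM in the 3 plants, followed by g7648 (chromosome 8, 1645353 to 1645886) at 26.8, 12.9 and 11.5 CPM. Both varied about 2-fold between plants of 80-1. Per kb of model length g7648 ranked first and g26016 ranked 11 of the 71.

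The limit of 1 CPM cuts through a continuous range of levels. The members just inside it were g29718, with 1.00 CPM in its lowest 80-1 library, and g21614, with 1.01 CPM, and just outside were g26826 and g38835, both with 0.995 CPM. A further 46 models with 0 counts in M6 had 0.5 to under 1 CPM in their lowest 80-1 library. On the side of M6, 64 models with at least 1 CPM in each 80-1 library had 1 to 3 counts in M6 and were not included.

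The member models are short. Their median length was 822 bases and their median exon number 2, and 11 of 71 (15.5%) had 1 exon. A set of 8191 models had at least 1 CPM in each library of both parents and a mean in 80-1 within the range of the members. It serves below as the comparison set, with a median length of 1563 bases, a median of 4 exons and 14.2% models of 1 exon. The comparison set had a higher median level in 80-1, at 7.10 CPM. In the reverse direction, 46 models had at least 1 CPM in each M6 library and 0 counts in 80-1, with a median length of 679.5 bases and 15 models (32.6%) of 1 exon.

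Members were found on every chromosome and were most frequent on chromosomes 11 and 8. Chromosome 11 held 15 of them, 1.30% of its 1153 models read in 80-1, and chromosome 8 held 10, or 1.10% of 907. Chromosome 10 followed with 8 members (0.766%) and chromosome 7 with 7 (0.545%), whereas the share on each of the other 8 chromosomes was between 0.169% (chromosome 12) and 0.359% (chromosome 3). The 46 models read in M6 alone of the parents had 9 on chromosome 1, 6 on chromosome 10 and 4 each on chromosomes 8 and 11.

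**Figure D1:**
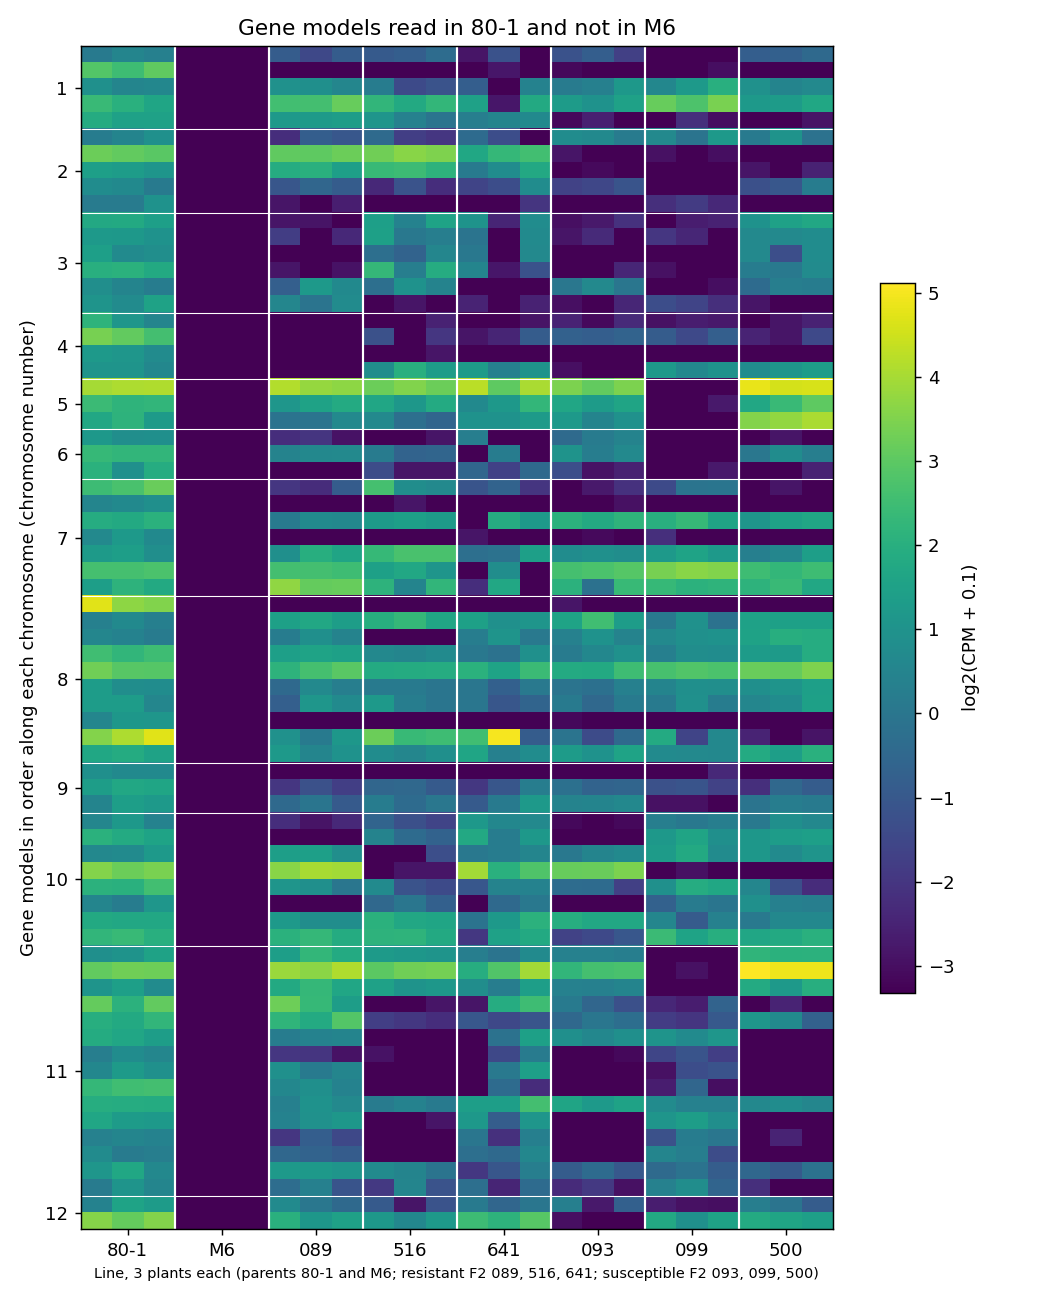
Level of the 71 gene models (rows, in order along chromosomes 1 to 12) in the 24 libraries (columns, 3 plants a line) as log2(CPM + 0.1), where dark cells are at or near 0 counts. Rows switch between bright and dark from line to line in the F2, neighbouring rows often switch together, and plants of a line are mostly alike except in EE501F2_641.

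In the F2 lines, which the rule did not use, most members were read in some lines and at or near 0 in others. By the limits of the rule itself, a member was called on in a line with at least 1 CPM in all 3 plants and off with 0 counts in all 3 plants. Among resistant lines, EE501F2_089 had 32 members on and 14 off, EE501F2_516 had 24 on and 12 off, and EE501F2_641 had 17 on and 6 off. Among susceptible lines, EE501F2_093 had 23 on and 11 off, EE501F2_099 had 20 on and 14 off, and EE501F2_500 had 28 on and 16 off. At full depth the counts of the classes overlapped, but EE501F2_093 was sequenced most deeply. With every library thinned to the smallest total, EE501F2_089, EE501F2_516 and EE501F2_641 had 14, 12 and 6 members off. EE501F2_093, EE501F2_099 and EE501F2_500 then had 18, 17 and 16 off, so the off counts of the classes did not overlap. The on counts still did, at 31, 26 and 17 against 19, 19 and 28. In the comparison set, by contrast, 91.9% to 97.9% of models were on in a line and 1 to 6 of 8191 models were off (0.0122% to 0.0733%), where 8.45% to 22.5% of members were off. The comparison set was chosen for reads in both parents, so part of this contrast is fixed by the choice. Its median level in the resistant parent was also higher than that of the members.

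Between 25 and 48 members per line were neither on nor off by these limits, since a single count, or 1 plant under 1 CPM, is enough for that. With the looser limits of a line mean of at least 0.5 CPM for on and under 0.1 CPM for off, which were chosen after the values were seen, 32 (EE501F2_099) to 50 (EE501F2_641) members were on and 11 (EE501F2_641) to 30 (EE501F2_093 and EE501F2_099) off. Few levels lay in between, with 2 members in EE501F2_500 and at most 10 in any line. By these limits 39 of the 71 members were on in at least 1 F2 line and off in at least 1 other. By the strict limits this count was 15.

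**Figure D2:**
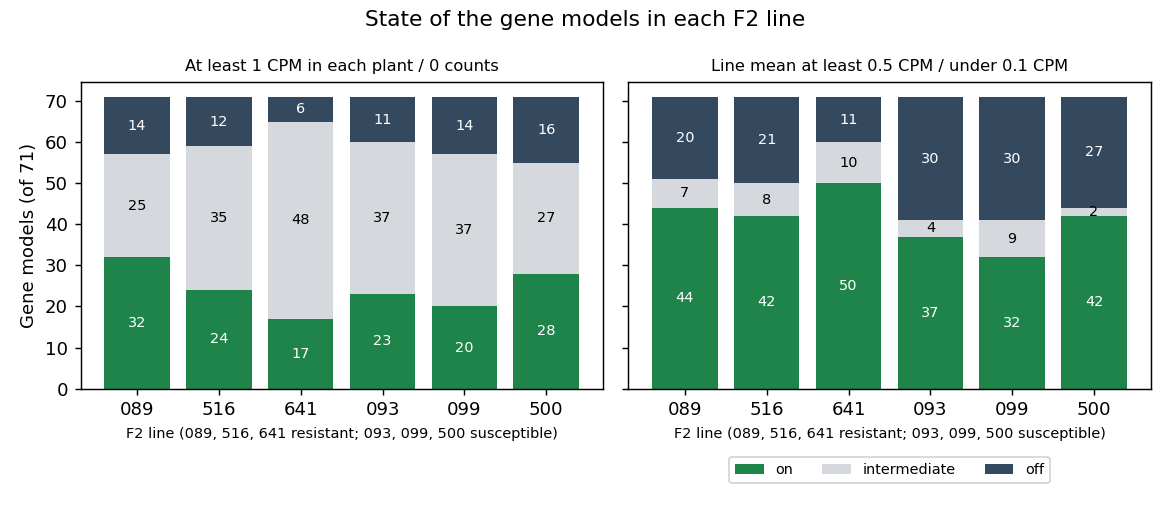
Number of the 71 gene models on, intermediate and off in each F2 line (bars stacked to 71), by the limits of the rule (left) and by the line mean (right). The line mean leaves 2 to 10 models between on and off.

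A group of members was read in every F2 line. By the strict limits 2 members were on in all 6 lines, g31631 and g7408, both on chromosome 8. The model g31631 (chromosome 8, 6179045 to 6184097) had 9.77, 7.51 and 7.28 CPM in 80-1, between 2.88 CPM in a plant of EE501F2_641 and 7.62 CPM in a plant of EE501F2_089 in the resistant lines, and between 3.41 and 11.2 CPM in the susceptible lines. The model g7408 (chromosome 8, 26211174 to 26213270) had 3.17 ± 0.389 CPM (SD, n = 3) in 80-1 and line means from 1.48 CPM in EE501F2_099 to 3.36 CPM in EE501F2_500. Without EE501F2_641 the count was 7, and by the line mean it was 16. A count of at least 1 was found in all 18 F2 plants for 16 members, which are not the same 16. For example, g9011 was on in every line by the line mean but had 0, 1.65 and 0 CPM in the plants of EE501F2_641.

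At the other end, several members of 80-1 were almost unread in the F2. No member had 0 counts in all 18 F2 plants, but 5 had at most 3 counts in each line, and 8 had a mean under 0.1 CPM in every line. The latter lie on chromosomes 1, 4, 7, 8 and 9. The most highly read of them was g7648, which had 3 counts in total in the F2, all in replicate 1 of EE501F2_093 (0.0389 CPM). The next, g2522 (chromosome 1, 44537458 to 44538155), had 7.24, 5.56 and 8.28 CPM in 80-1 and 3 counts over the 18 F2 plants, while g27453 and g36760 had 1 count each. Of 5 other members with fewer than 30 counts over the F2 plants, g10242 had 3 counts, g13460 had 4, g7254 had 6, g4712 had 21 and g29545 had 25.

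The remaining members are off in some lines and on in others. EE501F2_099 stood apart, with 7 members that were off in it and on in the other 5 lines by the line mean, on chromosomes 5, 9 and 11, against at most 1 such member in any other line. Among them g21266 (chromosome 5, 18154946 to 18156957) had 15.8, 17.0 and 17.4 CPM in 80-1 and 0 counts in all plants of EE501F2_099, and line means from 9.92 CPM in EE501F2_516 to 25.6 CPM in EE501F2_500. In EE501F2_093 the 1 such member was g16113 (chromosome 12, 36388449 to 36390374), with 12.0, 8.58 and 11.6 CPM in 80-1, 0.0259, 0 and 0 CPM in the plants of EE501F2_093 and line means of 1.94 to 5.78 CPM elsewhere in the F2. These members were singled out after their values were seen. Of the 7 members off in EE501F2_099, g21266 and g21270 lie within 1 Mb of each other, as do g8614 and g31488. The 7 were thus not taken as independent. By the strict limits 2 members were off in EE501F2_099 and on in the other 5 lines. By the line mean, no member was on in 1 F2 line and off in the other 5.

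Where members were on in the F2, they were mostly at or below the level of 80-1. The median ratio of the line mean to the 80-1 mean, over members on by the line mean, was 0.523 in EE501F2_516, 0.540 in EE501F2_641, 0.591 in EE501F2_093, 0.740 in EE501F2_089, 0.769 in EE501F2_099 and 0.808 in EE501F2_500. Of all 71 members, 43 (60.6%) had a mean below that of 80-1 in all 6 lines and 0 a mean above it in all 6, where the comparison set had 6.03% below and 33.2% above. On TMM-scaled CPM, which raises 80-1 against most lines, these were 71.8% and 0% of the members and 12.1% and 25.4% of the comparison set. Since members were chosen for reads in 80-1, part of the gap to 80-1 is fixed by the choice.

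Some members exceeded 80-1 in single lines. The widest excess was at g6900 (chromosome 5, 36115743 to 36119350), with 3.25, 4.27 and 2.33 CPM in 80-1, 11.7, 13.5 and 16.4 CPM in EE501F2_500, 0 counts in EE501F2_099 and 0.576 to 2.31 CPM in the plants of the other 4 lines. Its highest plant stood at 5.01 times the mean of 80-1, and all plants of EE501F2_500 lay above those of 80-1. At g26266 (chromosome 8, 3088595 to 3090430) a plant of EE501F2_093 reached 4.49 times the 80-1 mean, and all plants of that line lay above 80-1 (2.91, 5.73 and 2.44 CPM, against 1.17, 1.51 and 1.15 CPM in 80-1). Per line, 1 to 7 of the 71 members had all plants above all plants of 80-1, where 19.0% to 60.5% of the comparison set did. All plants below those of 80-1 were found for 45 to 57 members per line and for 10.2% to 20.0% of the comparison set. These counts and the excesses above are on CPM without TMM scaling, which raises 80-1 against most lines. The comparison set was chosen for reads in M6 as well, so part of its difference from the members is fixed by the choice. The member g26016, highest in 80-1, had 5.72, 32.4 and 0.448 CPM in the plants of EE501F2_641, so that 1 plant was above 80-1 and another far below it.

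The comparison of the F2 classes asks which members follow beetle resistance. No member was on in all 3 resistant and off in all 3 susceptible lines by the strict limits, or the reverse. When up to 3 counts over the plants of a line were accepted as off, g3669 and g8418 fitted the first pattern, by the line mean g7806 joined them, and under neither limit did a member have the reverse pattern. The model g3669 (chromosome 2, 7242861 to 7250207) had 9.19, 8.51 and 7.75 CPM in 80-1, 8.21, 8.11 and 9.36 CPM in EE501F2_089, 9.68, 12.2 and 11.2 CPM in EE501F2_516 and 3.13, 4.83 and 5.78 CPM in EE501F2_641. In the 9 susceptible plants it had 5 counts in all, 3 of them in a single plant of EE501F2_093. The classes did not overlap, and the resistant plants bracketed the level of 80-1.

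The second of these models, g8418 (chromosome 2, 14489242 to 14493521), lies on the same chromosome as g3669, and the models were not taken as independent. It had 2.63, 2.47 and 2.01 CPM in 80-1, 3.63, 3.96 and 2.65 CPM in EE501F2_089, 5.12, 5.48 and 4.26 CPM in EE501F2_516, 1.02, 1.61 and 3.32 CPM in EE501F2_641 and 4 counts in the 9 susceptible plants. The last of them, g7806 (chromosome 1, 61501351 to 61502352), had 3.60, 2.73 and 2.73 CPM in 80-1 and 2.27, 2.31 and 2.49 CPM in EE501F2_089. It was lower in EE501F2_516 (2.02, 1.21 and 0.844 CPM) and EE501F2_641 (1.14, 1.31 and 1.49 CPM), and had 11 counts in the susceptible plants. All 9 resistant plants lay above all 9 susceptible plants for each of the 3 models.

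**Figure D3:**
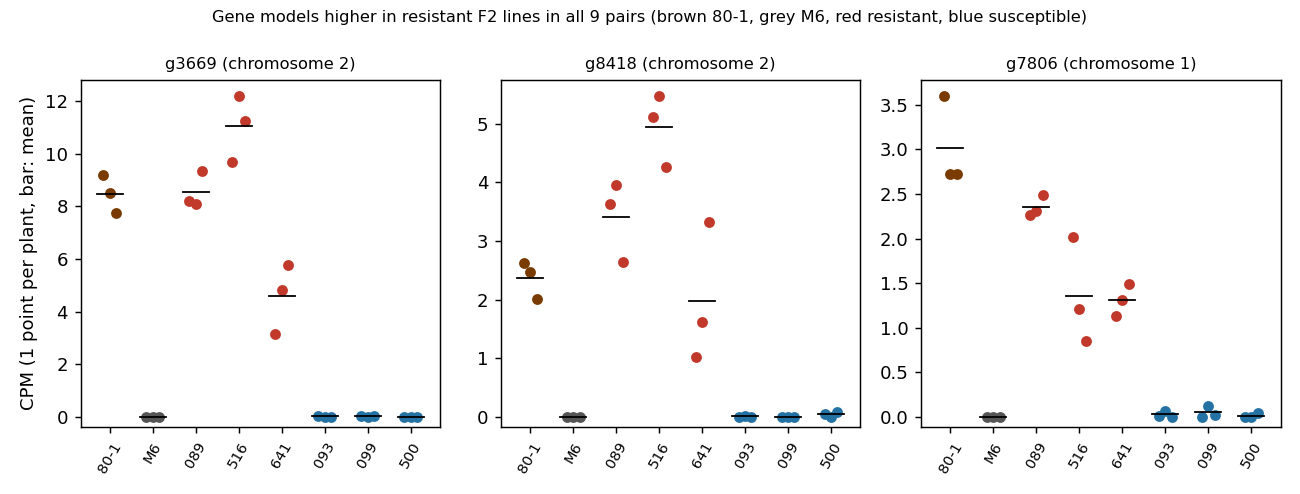
CPM of g3669, g8418 and g7806 by plant (points) with the line mean (bars), for 80-1 (brown), M6 (grey), resistant F2 lines (red) and susceptible F2 lines (blue). The susceptible lines and M6 stand at or near 0 and every resistant plant is above them.

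With the line as replicate (edgeR quasi-likelihood test on counts summed per line, adjusted over 21184 models), 59 of the 71 members could be tested and 1 was called higher in resistant lines, where 0.0142% of all models were called higher. This was g3669, whose line means averaged 8.06 ± 3.26 CPM (SD, n = 3) in resistant and 0.0104 ± 0.00936 CPM in susceptible lines (edgeR adjusted p = 0.0462). The ratio of counts was 639 (95% exact counting interval 273 to 1971, which leaves out the spread between plants and lines). By the same edgeR test g7806 had an adjusted p of 0.103 and a count ratio of 60.9 (33.7 to 123), and g8418 had 0.150 and 342 (133 to 1258). In this edgeR test 0 members were called lower, as were 0% of all models, and at an unadjusted p under 0.05 there were 4 members higher and 1 lower, where 3.86% and 3.54% of all models were.

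The DESeq2 test of the same sums called 4 members. These were g3669, g8418 and g7806 (DESeq2 adjusted p = 8.90e-30, 1.24e-17 and 3.83e-14) among 1.41% of all models called higher, and g15961 (3.74e-05) among 1.14% called lower. The model g15961 (chromosome 2, 848236 to 851382) averaged 0.327 ± 0.00647 CPM over the resistant and 1.38 ± 0.138 CPM over the susceptible lines (SD between lines, n = 3), with 1.07, 1.29 and 1.79 CPM in 80-1. Its plants spread more widely than its line means, from 0 to 0.666 CPM in resistant and from 0.818 to 2.23 CPM in susceptible lines. It did not pass the edgeR test over lines (adjusted p = 0.273). In the edgeR tests of single pairs of lines given below, it passed in 3 of 9 pairs. The call of g3669 rests on every line but EE501F2_641: without any 1 of the other 5 lines edgeR gave adjusted p-values from 0.109 to 0.447. The log2 fold change without each of these 5 lines was 8.82 to 9.49, against 9.21 with all 6.

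On the spread between plants, which speaks of these 6 lines alone, the same 3 members were called higher in each of the 9 pairings of 1 resistant with 1 susceptible line. That is 3 of 60 members tested, where 0.519% of 20601 models were called so. The largest edgeR adjusted p over the 9 pairs was 2.57e-06 for g3669, 8.98e-05 for g8418 and 0.000299 for g7806. In this edgeR test 0 members were called lower in all 9 pairs against 0.466% of all models. DESeq2 called 3 members higher and 0 lower in all 9 pairs, against 0.684% and 0.582% of all models. At an unadjusted edgeR p under 0.05 in every pair there were also 3 members higher and 0 lower, against 0.859% and 0.801% of all models. Without EE501F2_641, 3 members were called higher and 1 lower in the 6 remaining pairs, where 2.62% and 2.88% of all models were called. Without any 1 of the other 5 lines, 3 members were called higher and 0 lower. Of all models, 0.508% to 0.893% were then called higher and 0.480% to 0.786% lower. The models g3669 and g8418 lie on 1 chromosome.

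Most members did not separate the classes of the F2. Line means did not overlap for 3 members that were higher in resistant lines (4.23%, against 3.35% of 26089 models with counts in the F2) and for 4 that were lower (5.63%, against 6.83%), shares near those of all models. The 4 lower ones were g15961, g29545, g22961 and g26285, of which g29545 was under 0.1 CPM in every line. Over the 59 members tested the median log2 fold change, resistant minus susceptible, was 0.33, with 41 above and 18 below 0. Over all 21184 models tested the median was 0.022, with 52.6% above 0.

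Members close to each other tended to share their state in the F2. Members linked by starts at most 1 Mb apart formed 12 groups of 2 to 4, with 33 members, and 38 members stood alone. Over the 21 pairs of neighbours there were 46 cases of a pair in a line with both members strictly on or off, and 39 of them (84.8%) were alike. Pairs on different chromosomes were alike in 53.7% of 3537 cases. By the line mean, 87 of 108 cases (80.6%) of neighbours were alike against 54.3%. Pairs share lines and members, so these shares are a description.

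At the start of chromosome 3, g18600 (chromosome 3, 52072 to 55778), g13149 (chromosome 3, 988773 to 992431) and g13165 (chromosome 3, 1163091 to 1163973) lie within 1112 kb. The first of them, g18600, had 3.34, 3.43 and 2.65 CPM in 80-1, 2.64, 1.25 and 2.88 CPM in EE501F2_516, 1.88, 2.73 and 3.23 CPM in EE501F2_500 and 1.92, 0.0847 and 1.60 CPM in EE501F2_641, and at most 0.131 CPM in any plant of the other lines. The model g13149 had 2.67, 0.939 and 1.11 CPM in EE501F2_516, 1.48, 1.48 and 1.64 CPM in EE501F2_500 and 0.862, 0 and 1.53 CPM in EE501F2_641, and g13165 had 0 counts in every plant of EE501F2_089, EE501F2_093 and EE501F2_099. The next member along the chromosome, g23155 (chromosome 3, 2635138 to 2638851), was read in the same lines, with 4.89, 1.14 and 3.61 CPM in EE501F2_516, 1.08, 0.975 and 1.60 CPM in EE501F2_500 and 1.33, 0.0424 and 0.336 CPM in EE501F2_641. All 4 models were thus read in 1 resistant and 1 susceptible line and in replicates 1 and 3 of EE501F2_641, and all 4 were at or near 0 in its replicate 2.

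**Figure D4:**
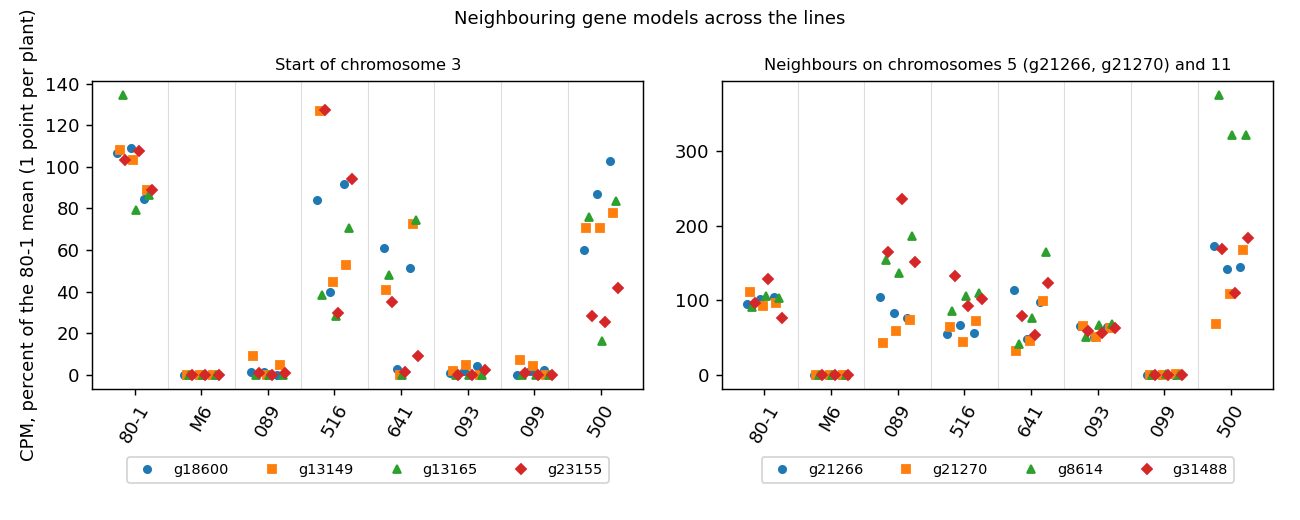
CPM as a percentage of the 80-1 mean in every plant (points), for 4 models at the start of chromosome 3 (left) and for the neighbours g21266 and g21270 on chromosome 5 and g8614 and g31488 on chromosome 11 (right). The models on the left are near 0 in M6, EE501F2_089, EE501F2_093 and EE501F2_099 and in 1 plant of EE501F2_641, and those on the right in M6 and EE501F2_099.

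On chromosome 5, g21270 (chromosome 5, 18323018 to 18328111) followed its neighbour g21266: it had 5.32, 4.38 and 4.59 CPM in 80-1 and 0, 0 and 0.0490 CPM in EE501F2_099, and line means of 2.80 to 5.47 CPM elsewhere in the F2. On chromosome 11, g8614 (chromosome 11, 4034338 to 4035178) and g31488 (chromosome 11, 4368981 to 4371068) were read in every F2 line but EE501F2_099, with 1 count of g8614 and 0 of g31488 there. In EE501F2_500 g8614 had 34.8, 29.8 and 29.8 CPM, above its 8.41, 9.76 and 9.57 CPM in 80-1.

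A tight group on chromosome 11 holds g1382, g1386 and g1387 within 30.6 kb (32863304 to 32893855). The model g1386 had 1.40, 2.32 and 1.79 CPM in 80-1, 1.78, 0.991 and 1.32 CPM in EE501F2_089, and 0 counts in all plants of EE501F2_516, EE501F2_093 and EE501F2_500. The model g1387 had 4.87, 5.75 and 5.99 CPM in 80-1 and 1.40, 1.73 and 1.23 CPM in EE501F2_089, with 0 counts in the same 3 lines. In EE501F2_641 both had 0 counts in replicate 1 and were read in the other 2 plants. In EE501F2_099 they were low, at 0.0300, 0.295 and 0.343 CPM for g1386 and 0.0601, 0.589 and 0.0245 CPM for g1387. The model g1382 had 1.14, 1.62 and 1.36 CPM in 80-1 but only 0.151, 0.147 and 0.0323 CPM in EE501F2_089. No other stretch of models without a count in M6 held as many members, 3 of 5 models.

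Neighbours did not always share their state. The 7 strict cases that were unlike fell on 4 pairs. On chromosome 7, g10242 was off and g22961 on in EE501F2_089, EE501F2_099 and EE501F2_500. On chromosome 11, g13572 was off in EE501F2_093 and EE501F2_500 where g13569, whose start is 15450 bases away, was on. On chromosome 8, g26285 (chromosome 8, 3266235 to 3266558) had 0 counts in EE501F2_516, where g26266 had 3.81, 4.81 and 3.07 CPM. The other pair, on chromosome 10, differed in EE501F2_089.

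Models without reads in M6 often lay side by side. Of the models that flank a member on either side, 38.0% had 0 counts in M6, where 21.8% of all chromosome models did. Some flanking models are members themselves and have 0 counts in M6 by the rule. Part of this share is thus fixed by the choice. At least 1 flanking model at 0 counts in M6, members included, was found for 45 of the 71 members. Flanking models with at least 1 CPM in every M6 library on both sides were found for 7 members. The members fell in 66 runs of consecutive models without counts in M6, 26 of which were a single model. The longest run held 9 models and 1 member, g21614 (chromosome 1, 16763256 to 16764062), and 5 of its models had counts in 80-1. No member overlapped another model.

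The state of members was set beside that of the surrounding segment, measured on other genes. For this, 757 models with at least 10 counts in every parent library, at least a 4-fold difference between the parents and an edgeR adjusted p under 0.05 were used, none of them a member. Each gave a parental state on the log2 CPM scale, 0 at the mean of M6 and 1 at the mean of 80-1, and medians were taken over 5 Mb windows with at least 5 such models, which covered 51 members. Around members that were on in a line the median state was 0.441 (98 cases, quartiles 0.303 and 0.715), and around members that were off it was 0.221 (54 cases, quartiles 0.135 and 0.476). The state was under 0.25 around 17.3% of on cases and 51.9% of off cases. With 2 Mb windows the medians were 0.516 and 0.0883, a wider gap. The gap was narrower under the other settings tried. The medians were 0.491 and 0.339 when the limit on the parental difference was lowered to 2-fold. They were 0.441 and 0.250 with on and off taken by the line mean, and 0.407 and 0.213 without EE501F2_641.

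Single members followed the surrounding state to different degrees. In the window of g7806 on chromosome 1 the state was 0.771 in EE501F2_089, 0.413 in EE501F2_516 and 0.599 in EE501F2_641, where the model was read. The state was 0.405 in EE501F2_093, 0.640 in EE501F2_099 and 0.00218 in EE501F2_500, where g7806 was near 0 CPM. No window with at least 5 such models covered g3669 or g8418. The window of g18600 on chromosome 3 stood at 0.222 in EE501F2_516 and 0.261 in EE501F2_500, where g18600 was read, and between -0.0419 and 0.0808 in EE501F2_089, EE501F2_093 and EE501F2_099, where it was near 0. Cases share windows and lines, so no test was made.

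The plants of EE501F2_641 did not have reads for the same members. In this line 11 members (15.5%) had at least 1 CPM in a plant and 0 counts in another, against 0 members in each of the other 5 F2 lines. In the comparison set this was so for 11 of 8191 models (0.134%) in EE501F2_641, 2 models in EE501F2_099 and 0 in the other 4 lines. That set was chosen for reads in both parents, so its low share is in part fixed by the choice. The widest splits were both on chromosome 7, at g22961 (chromosome 7, 2315215 to 2318188) with 0, 3.68 and 2.28 CPM and g21741 (chromosome 7, 37236450 to 37237804) with 0.117, 3.26 and 0 CPM in replicates 1 to 3. Another model of the chromosome, g9011 (chromosome 7, 35116633 to 35120068), had 0, 1.65 and 0 CPM, where the lowest plant of any other F2 line had 2.03 CPM.

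The plants were not ordered the same way at every locus. Of the 11 split members, 6 were at 0 counts in replicate 1, 4 in replicate 2 and 4 in replicate 3. At g291 (chromosome 1, 57115224 to 57116323) on chromosome 1 replicate 2 had 0 counts beside 1.64 CPM on average in EE501F2_089, and its neighbour g303 (chromosome 1, 57223298 to 57224697) had 2.74, 0.0424 and 3.40 CPM. At the start of chromosome 3 replicate 2 was also the plant at or near 0, and in the tight group of chromosome 11 it was replicate 1. The parental state of the 5 Mb windows, taken per plant, had a median of 0.472 (quartiles 0.279 and 0.613) where a split member was at 0 counts and 0.545 (0.282 and 0.735) where it had at least 1 CPM, ranges that overlap widely. Whether the plants of this line are of 1 genotype was not tested.

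**Figure D5:**
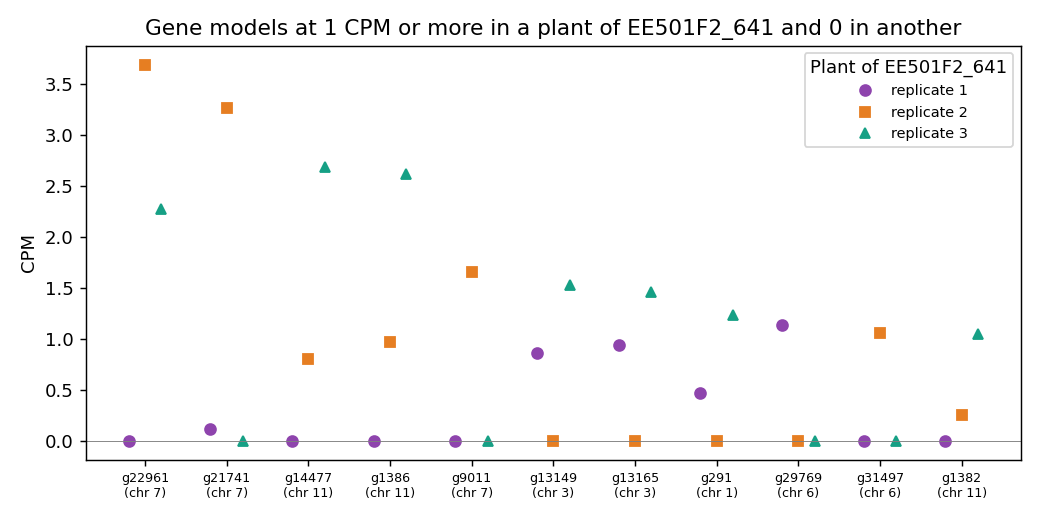
CPM in the 3 plants of EE501F2_641 (1 marker per replicate) for the 11 gene models with at least 1 CPM in a plant and 0 counts in another. Replicate 1 is at 0 for 6 of them, replicate 2 for 4 and replicate 3 for 4.

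The 46 models of the reverse kind, read in M6 and not in 80-1, also varied between F2 lines. By the same strict limits, 5 (EE501F2_641) to 26 (EE501F2_516) of them were on and 3 (EE501F2_093) to 12 (EE501F2_516) off.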

How the data were processed

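Leaf RNA of 24 plants was sequenced, 3 plants of each of 8 lines. The deposited table holds whole-number counts of reads for each gene model, with no normalization. Per the submitters' processing notes, Trimmomatic 0.35, STAR 2.6.0, Subread, featureCounts 1.5.3 and DESeq2 were used, with no role or order given. The table also gives a model length in bases, another unit deposited by the authors. For genome build, annotation, strand setting and reads with several matches, the choice is "not given in the sources used here", so reads of near-identical copies cannot be separated, and coordinates are those of the table, from 1. The 7954 unplaced models had 0 counts in every library.

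CPM is the count over the column sum. F2 classes were tested with edgeR 4.0.16 (R 4.3.3; TMM, filterByExpr, quasi-likelihood) on counts summed per line, and on plants for all 9 pairs of lines. P-values were Benjamini-Hochberg adjusted over all models tested, with a threshold of 0.05. These fits used F2 libraries alone, and parental states came from a fit of all 24 libraries. The F2 fits were also run on counts simulated with a fixed dispersion and no line differences beyond the class. There 96 of 100 4-fold changes were recovered over lines and 74 of 100 over pairs. The simulation lacks the other differences between F2 lines, so it does not give the power reached here. DESeq2 1.42.0 was an alternative. Counting intervals are exact (95%) and cover counting error only. Replicates differed by more than counting noise (chi-square per degree of freedom 11.7 to 233 over 24 pairs). Named models are at most 2 per category: highest in 80-1, on or off in all lines, called between classes, split between plants, nearest the limit, highest against 80-1, and longest run. Others were chosen after their values were seen. Members, lists and limits were chosen with earlier results of these data known.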

Additional observations from a re-analysis of the deposited data

How the results depend on the processing

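The number of members depends on the limits. It was 117 with a floor of 0.5 CPM, 35 with a floor of 2 CPM, 135 with up to 3 counts allowed over the M6 libraries, and 83 to 118 when a replicate number was left out of both parents. Leaving out M6 replicate 3 alone gave 107, and any other parental library 72 to 88.

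The count on in all 6 F2 lines (2 members) was 7 with a floor of 0.5 CPM, 1 with a floor of 2 CPM, 16 by the line mean and 7 without EE501F2_641. The count off in all 6 lines (0) was 5 with up to 3 counts allowed per line, 1 with every library thinned to the smallest total, 8 by the line mean, and 0 to 2 without a replicate number. On in all resistant and off in all susceptible lines (0) became 2 with up to 3 counts and 3 by the line mean. The line mean and the omission of EE501F2_641 were chosen after seeing the data. The cause of these differences was not tested.

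The 1 call between classes with lines as replicates became 4 with DESeq2, where 1.41% of all models were called higher and 1.14% lower. It became 0 to 1 without a line, where 0% to 0.0232% of all models were called higher and 0% to 0.0371% lower. Without a replicate number it became 0 to 1, where 0.00484% to 0.0292% of all models were called higher and 0% to 0.0146% lower. For g3669 the adjusted p was 0.0269 without replicate 1, 0.0812 without replicate 2 and 0.0814 without replicate 3, with log2 fold changes of 10.52, 8.65 and 8.83 against 9.21 with all plants. The count over 9 pairs was 3, where 0.519% of all models were called higher and 0.466% lower. Without a line it was 3 to 4, where 0.508% to 2.62% of all models were called higher and 0.480% to 2.88% lower. Replicate numbers were not taken to pair plants in the main fits, and whether they do was not tested. Between plants of opposite classes, correlations of deviations ran from -0.234 to 0.296 for equal numbers (27 pairs, median 0.0612). For unequal numbers they ran from -0.298 to 0.308 (54 pairs, median -0.00952). Of 18 libraries, 8 correlated best with their own number. With the replicate block the count over 9 pairs was also 3, where 0.485% of all models were called higher and 0.408% lower. Depth limits the off state to 3 counts a line, and EE501F2_093 was sequenced most deeply. Lines are single F2 individuals, 3 per class.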
